A study of Homo sapiens with 12 samples.

Results

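The gene set described here holds GADD45A, GADD45B, GADD45G, GDF15, PLK2, PLK3, MDM2, SESN1, ZMAT3 and TP53INP1, stress-response genes that are linked to the tumor suppressor p53. The members were chosen by gene symbol, 10 in all, and 8 of them had a row among the 20771 genes of the count table. GADD45G and PLK2 had no row and were not analysed here. The 8 members with a row all passed the filter on low counts and were among the 16515 genes tested. They were divided by what is generally known of their induction. GADD45A, GADD45B, GDF15 and PLK3 respond to several stress pathways besides p53, as do GADD45G and PLK2. MDM2, SESN1, ZMAT3 and TP53INP1 depend mainly on p53. The question was whether the 2 classes moved alike when ribonucleotide reductase was lost.

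Poly(A) RNA of 2 Ewing sarcoma cell lines, EW8-RRM1-KO and TC71-RRM1-KO, was sequenced in 12 libraries, 3 for each of 4 groups. In both lines the endogenous RRM1 gene, which encodes the catalytic subunit of ribonucleotide reductase, is disrupted by Cas9, and a codon-optimized, Cas9-resistant RRM1 transgene is expressed only under doxycycline. The 4 groups were EW8 at 0 h, EW8 at 48 h, TC71 at 0 h and TC71 at 48 h, where 0 h stands for cells kept in doxycycline and 48 h for cells without it for that time. The knockout, the nuclease and the transgene are shared by all 4 groups, no unmodified parental cells were sequenced, and each line is a single-cell clone, so that line and clone cannot be told apart. The labels do not say whether the 3 libraries of a group came from separate cultures, so p-values measure the spread between these libraries, which may be technical.

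Libraries held 18468485 to 35698991 counts, and the fitted biological coefficient of variation was 4.17%. The row of the targeted gene, RRM1, stood at 9.52 ± 0.148 CPM (counts scaled to library size with TMM factors; SD, n = 3) in EW8 at 0 h and at 70.2 ± 5.54 at 48 h, and at 16.2 ± 0.98 and 25.4 ± 1.19 CPM in TC71. The RRM1 row was higher, not lower, in the libraries labelled 48 h. The knockout is shared by both conditions and the transgene, which differs in sequence, is what doxycycline controls, so this row does not check the labels, and 0 h and 48 h below mean the labels only. All 7 Ewing sarcoma markers (CD99, NKX2-2, NR0B1, FLI1, STEAP1, PRKCB and CCND1) were at or above 1 CPM in every group. Of the immune, endothelial and epithelial markers, PTPRC and CDH5 stayed at or under 0.219 CPM and EPCAM at or under 1.6 CPM, and CD3E, CD68, PECAM1 and CDH1 had no row. The summed level of the fibroblast markers COL1A1, DCN and LUM rose from 28.6–30.6 to 62.6–69.3 CPM in EW8 and from 36.3–39.8 to 60.4–63.2 CPM in TC71. In EW8, COL1A1 rose from 11.2 to 38.6 CPM, DCN from 13.5 to 21.4 and LUM from 4.7 to 6.58. In TC71, COL1A1 rose from 20.6 to 32.5 CPM and DCN from 18.0 to 29.2, and LUM was near the floor (0.0412 and 0.129). The part of these markers in the results below was not tested.

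p53 is a transcription factor that is stabilized after DNA damage and replication stress and then binds response elements in its target genes. MDM2 is both its target and the ubiquitin ligase that removes it, so the pair forms a feedback loop. The GADD45 proteins are small nuclear stress sensors that bind the kinase MAP3K4 and PCNA and act on the JNK and p38 kinase pathways. Their genes, like those of the Polo-like kinase PLK3 and the secreted cytokine GDF15, can also be induced without p53, through factors such as ATF4, CHOP, AP-1, EGR1 and NF-kB.

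The sequences that such factors could read are shown first for the members that changed most and for the feedback gene MDM2. Each is the 250 bases before a RefSeq transcription start (GRCh38.p14), 5′ to 3′ along the gene, with motif letters in capitals.

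GADD45B: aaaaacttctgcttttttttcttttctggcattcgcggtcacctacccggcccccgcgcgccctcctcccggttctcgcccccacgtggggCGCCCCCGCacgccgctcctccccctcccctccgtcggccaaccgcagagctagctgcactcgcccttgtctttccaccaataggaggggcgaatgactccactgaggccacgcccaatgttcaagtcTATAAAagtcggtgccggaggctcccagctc

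GDF15: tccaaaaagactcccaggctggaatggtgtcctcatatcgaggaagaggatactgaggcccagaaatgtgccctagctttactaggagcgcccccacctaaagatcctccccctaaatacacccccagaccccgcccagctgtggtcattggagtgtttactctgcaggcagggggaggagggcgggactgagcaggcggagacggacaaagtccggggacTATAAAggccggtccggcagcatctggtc

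PLK3: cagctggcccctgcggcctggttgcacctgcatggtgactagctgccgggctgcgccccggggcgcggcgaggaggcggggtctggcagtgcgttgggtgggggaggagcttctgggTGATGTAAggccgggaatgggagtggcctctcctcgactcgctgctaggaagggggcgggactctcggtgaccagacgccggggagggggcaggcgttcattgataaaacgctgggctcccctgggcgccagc

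MDM2: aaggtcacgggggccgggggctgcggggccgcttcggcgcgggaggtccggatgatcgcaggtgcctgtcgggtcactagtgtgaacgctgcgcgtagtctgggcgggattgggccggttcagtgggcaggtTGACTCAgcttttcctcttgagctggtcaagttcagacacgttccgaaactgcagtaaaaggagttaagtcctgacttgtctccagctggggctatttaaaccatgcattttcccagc

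These stretches are chr19:2475877-2476126 (+ strand) for GADD45B, chr19:18385908-18386157 (+) for GDF15, chr1:44800127-44800376 (+) for PLK3 and chr12:68808767-68809016 (+), before the third of 4 listed starts, for MDM2. Both strands were searched for 8 motifs in windows of 300 bases (250 before to 50 after a start): AP-1 (TGANTCA), CRE (TGACGTCA), CEBP-ATF (TGATGNAA), NF-kB, EGR (GCGNGGGCG), a TATA box (TATAAA), a p53 half-site and the SRF CArG box. The capitals mark a TATA box in GADD45B and GDF15, an EGR motif on the opposite strand in GADD45B, a CEBP-ATF motif in PLK3 and an AP-1 motif in MDM2. Over 34943 RefSeq promoters, the TATA box was held by 11.6%, the EGR motif by 9.41%, the AP-1 motif by 7.72%, the p53 half-site by 6.64%, the CEBP-ATF motif by 3.62%, NF-kB by 1.91%, CRE by 1.84% and the CArG box by 1.3%. A p53 half-site lay in 1 of the SESN1 windows. No motif searched was held by all of GADD45B, GDF15 and PLK3. GADD45A had no entry.

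The 20-letter p53 consensus (a pair of adjacent half-sites) was searched within 5000 bases of each canonical start in hg38, with up to 2 letters off. The matches near members are shown with the core of each half-site in capitals, so that they can be set beside the changes in expression.

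GADD45A: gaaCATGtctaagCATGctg

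GADD45B: agaCTTGgttgaaCTTGgtt

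GDF15: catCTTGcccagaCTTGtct

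PLK3: ggaCAAGgttggaGAAGttt

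MDM2: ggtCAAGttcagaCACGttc

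MDM2, second match: ggaCTTGcctagtCTTAtct

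ZMAT3: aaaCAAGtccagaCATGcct

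The match of GADD45A, with 1 letter off, lies in an intron (chr1:67686775-67686794, gene on the + strand). The match of ZMAT3 has no letter off and also lies in an intron (chr3:179070188-179070207, gene on the − strand). The other matches have 2 letters off. They lie in an exon of GADD45B (chr19:2478021-2478040), in an intron of a longer GDF15 transcript (chr19:18385308-18385327), upstream of PLK3 (chr1:44798592-44798611) and in introns of MDM2 (chr12:68808923-68808942 and chr12:68811195-68811214), all with the gene on the + strand. The first MDM2 match falls inside the MDM2 promoter stretch printed above. Of 15991 genes tested that could be searched, 22.8% had a match with up to 2 letters off, 1.96% with up to 1 and 0.144% with every letter matched. SESN1 and TP53INP1 had no match in this window. Matches are thus present in both classes of members, and a match of letters is a description and not a measured binding site.

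GADD45B, PLK3 and GADD45A, which other stress pathways also induce, rose past 2-fold in EW8, where 13.9% of all genes did. None of the 4 members that depend mainly on p53 was called past 2-fold there, where 17.2% of all genes were called in either direction. None of 4 is near that share, and the 95% confidence interval of TP53INP1 (0.6 to 1.07 on the log2 scale) reached past 2-fold. GADD45B rose 6.87-fold, PLK3 6.33-fold and GADD45A 3.22-fold. In TC71 the same 3 genes rose, where 22.9% of all genes did by adjusted p alone, GADD45A by less than 2-fold. GDF15, which had no count in EW8 at 0 h, rose at least 16.8-fold there and is counted apart, since it passed the filter only through its 48 h libraries. Among the genes that depend mainly on p53, TP53INP1 and ZMAT3 rose in EW8 by 1.78-fold and 1.35-fold, MDM2 fell, and SESN1 did not pass the test in either line. Tests were edgeR's quasi-likelihood test with Benjamini-Hochberg adjustment over all 16515 genes, and calls needed a fold above 2 at an adjusted p below 0.05. In bulk RNA, a change of expression per cell and a change in the share of cells that express a gene cannot be told apart.

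**Figure D1:**
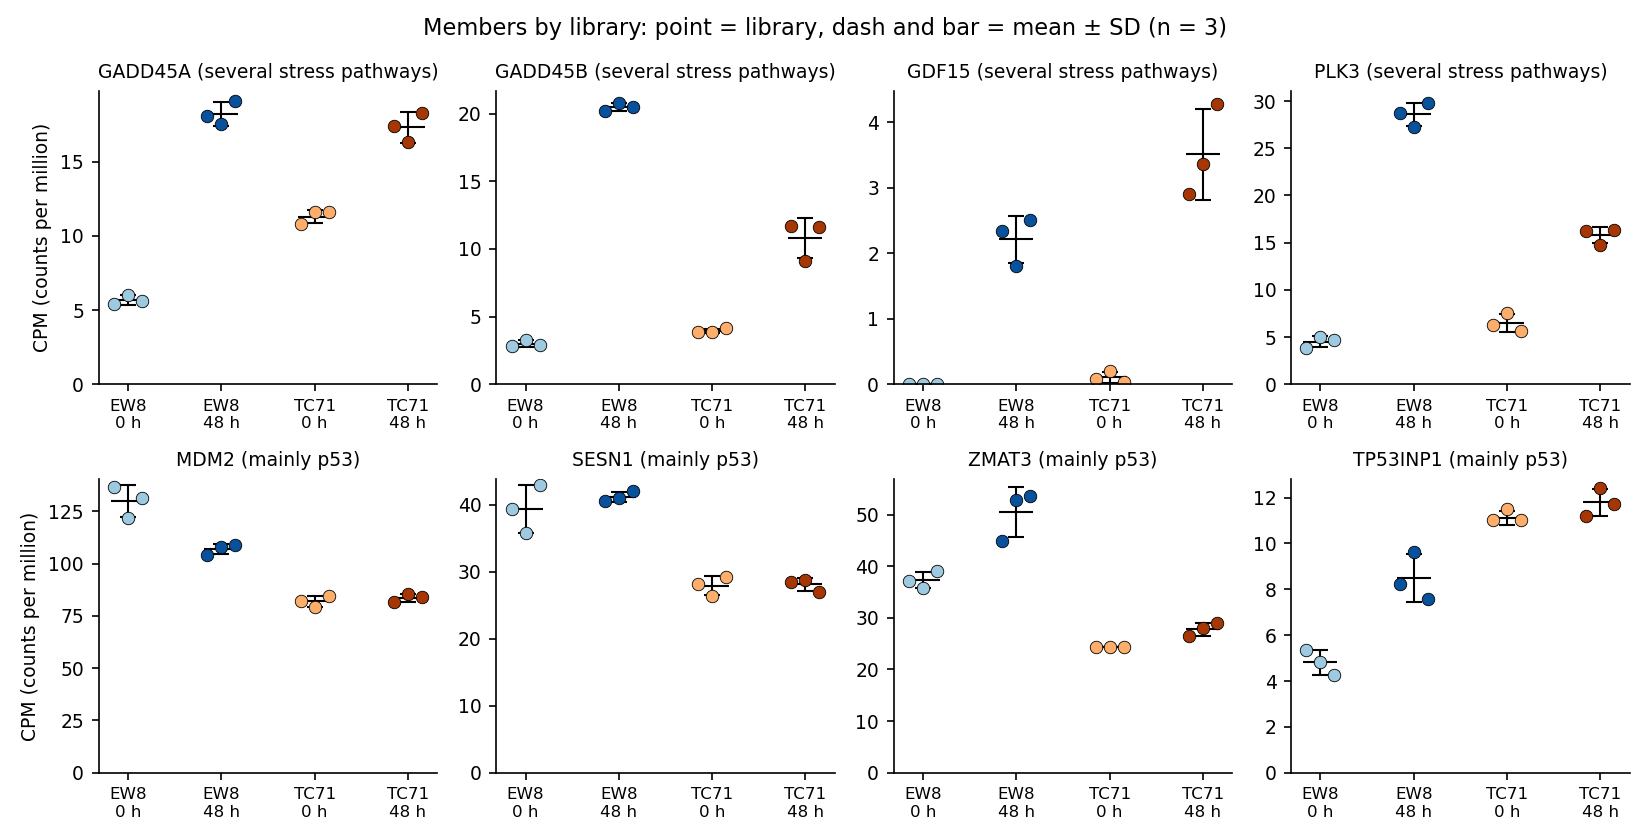
Level of the 8 members with a row in each of the 12 libraries, in CPM on a linear axis from 0 (points, libraries; dash and bar, mean ± SD, n = 3). In the top row the 48 h points lie above the 0 h points of the same line for GADD45A, GADD45B, GDF15 and PLK3, while MDM2 in the bottom row falls from 130.0 to 107.0 CPM in EW8 and stays near 82 to 84 CPM in TC71.

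GADD45B (chr19:2476122-2478259, + strand), the GADD45 gene best known as an early response to TGF-beta and NF-kB, was counted 64, 57 and 96 times in the EW8 libraries at 0 h and 379, 414 and 419 times at 48 h. Its TC71 counts were 104, 79 and 100 at 0 h and 307, 244 and 376 at 48 h. The 48 h libraries stood above every 0 h library in both lines. The log2 fold change was 2.78 (SE 0.11, adjusted p = 1.57e-21, edgeR) in EW8 and 1.45 (SE 0.11, adjusted p = 6.31e-13) in TC71. The 3 EW8 libraries at 48 h were close together (20.5 ± 0.303 CPM, SD, n = 3), and those of TC71 were spread more widely (10.8 ± 1.49 CPM).

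GADD45A (chr1:67685201-67688334, + strand), the founding GADD45 gene and a target of p53 as well as of ATF4 and BRCA1, was counted 123, 105 and 185 times in the EW8 libraries at 0 h and 340, 350 and 390 times at 48 h. In TC71 the counts were 289, 236 and 280 at 0 h and 455, 437 and 593 at 48 h. The groups did not overlap on the CPM scale in either line. The log2 fold change was 1.69 (SE 0.09, adjusted p = 7.19e-18, edgeR) in EW8. In TC71 it was 0.62 (95% confidence interval 0.46 to 0.78, adjusted p = 6.54e-08), which is a rise of 1.54-fold and under the fold threshold. The 2 lines ended at nearly the same level, 18.2 ± 0.783 CPM in EW8 and 17.3 ± 1.02 in TC71 (SD, n = 3), from starting levels of 5.68 ± 0.316 and 11.3 ± 0.47 CPM.

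PLK3 (chr1:44800377-44805990, + strand), a Polo-like kinase that is rapidly induced by serum and by DNA damage, was counted 88, 87 and 155 times in the EW8 libraries at 0 h and 540, 545 and 608 times at 48 h. Its TC71 counts were 170, 154 and 136 at 0 h and 424, 396 and 527 at 48 h. Every 48 h library was above every 0 h library of its line. The log2 fold change was 2.66 (SE 0.1, adjusted p = 2.49e-22, edgeR) in EW8 and 1.29 (SE 0.1, adjusted p = 4.67e-13) in TC71. Exons of PLK3 share 98 bases with DYNLT4 on the opposite strand, and the strand setting of the counting is not given in the sources used here.

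GDF15 (chr19:18374731-18389176, + strand), a secreted cytokine of the TGF-beta family that is induced by mitochondrial and integrated stress responses as well as by p53, was nearly silent at 0 h. It had no count in any of the 3 EW8 libraries at 0 h and 44, 36 and 51 at 48 h. Its TC71 counts were 2, 4 and 1 at 0 h and 76, 90 and 138 at 48 h. GDF15 therefore went from at or near no counts to a low but counted level in both lines. A floor of 3 counts in each 0 h library of EW8 corresponds to 0.132 CPM, against 2.21 ± 0.362 CPM (SD, n = 3) at 48 h, hence the bound of at least 16.8-fold. In TC71 the summed counts were 304 against 7, a depth-scaled ratio of 36.3 with an exact 95% interval of 17.4 to 91.2 that covers counting error only. The fitted TC71 log2 fold change was 5.1 (SE 0.34). GDF15 passed the filter on low counts only through its 48 h libraries, so its calls had to be higher. No p-value is therefore given here for either line.

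MDM2 (chr12:68808177-68845544, + strand) had the highest counts of the set, 3123, 2127 and 4303 in EW8 at 0 h and 1959, 2155 and 2222 at 48 h. Scaled to library size these were 136.8, 121.8 and 131.2 CPM at 0 h and 104.2, 108.0 and 108.7 CPM at 48 h, so the groups did not overlap and the 48 h libraries were the lower ones. MDM2 fell by 0.28 on the log2 scale in EW8 (95% confidence interval −0.38 to −0.19, adjusted p = 1.89e-06, edgeR), to 0.822 of its 0 h level. Its TC71 counts were 2205, 1616 and 2038 at 0 h and 2137, 2289 and 2724 at 48 h, with a log2 fold change of 0.03 (−0.06 to 0.13, adjusted p = 0.622), and the libraries overlapped. The TC71 interval holds under TMM scaling and for the spread between these libraries only. MDM2 exons share 133 bases with CPM, the carboxypeptidase M gene on the opposite strand, and 439 bases with a pseudogene on the same strand.

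SESN1 (chr6:108984309-109094846, − strand), a sestrin that restrains mTORC1 signaling and protects against oxidants, was counted 900, 625 and 1410 times in the EW8 libraries at 0 h and 762, 817 and 858 times at 48 h. Its TC71 counts were 758, 538 and 706 at 0 h and 744, 773 and 872 at 48 h. On the CPM scale the 0 h and 48 h libraries overlapped in both lines. The log2 fold change was 0.05 (95% confidence interval −0.07 to 0.18, adjusted p = 0.456, edgeR) in EW8 and 0.0 (−0.13 to 0.13, adjusted p = 0.98) in TC71. The upper ends of these intervals reached 0.18 at most, under TMM scaling and for the spread between these libraries only. Under scaling by total counts alone the EW8 value was 0.18 with an adjusted p of 0.00961, where the median of all genes moved to 0.156.

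ZMAT3 (chr3:178960121-179072215, − strand), an RNA-binding zinc finger protein and a direct p53 target that acts in splicing and growth restraint, was counted 850, 625 and 1279 times in the EW8 libraries at 0 h and 844, 1055 and 1095 times at 48 h. These were 37.3 ± 1.61 and 50.5 ± 4.84 CPM (SD, n = 3), and the groups did not overlap. The log2 fold change was 0.43 (SE 0.06, adjusted p = 1.72e-07, edgeR). In TC71, where its 0 h counts were 655, 498 and 589 and its 48 h counts 695, 751 and 937, it was 0.19 (SE 0.07, adjusted p = 0.0182). The TC71 call was lost without TC71 0 h replicate 1 (adjusted p = 0.0514) and without TC71 48 h replicate 3 (adjusted p = 0.0892).

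TP53INP1, which encodes a nuclear protein that promotes p53 phosphorylation and takes part in autophagy, was counted 122, 84 and 140 times in the EW8 libraries at 0 h and 155, 192 and 155 times at 48 h. Its TC71 counts were 294, 234 and 265 at 0 h and 294, 332 and 377 at 48 h. The EW8 groups did not overlap on the CPM scale (4.81 ± 0.537 and 8.48 ± 1.04 CPM, SD, n = 3), whereas those of TC71 did (11.1 ± 0.299 and 11.8 ± 0.587 CPM). The log2 fold change was 0.83 (SE 0.11, adjusted p = 7.38e-08, edgeR) in EW8 and 0.08 (95% confidence interval −0.1 to 0.26, adjusted p = 0.499) in TC71. It was the mainly p53-dependent member with the widest change, and its EW8 level at 48 h was still below the TC71 level at 0 h. Its 95% confidence interval in EW8, 0.6 to 1.07, reached past 2-fold. Its exons share 225 bases with NDUFAF6 on the opposite strand.

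**Figure D2:**
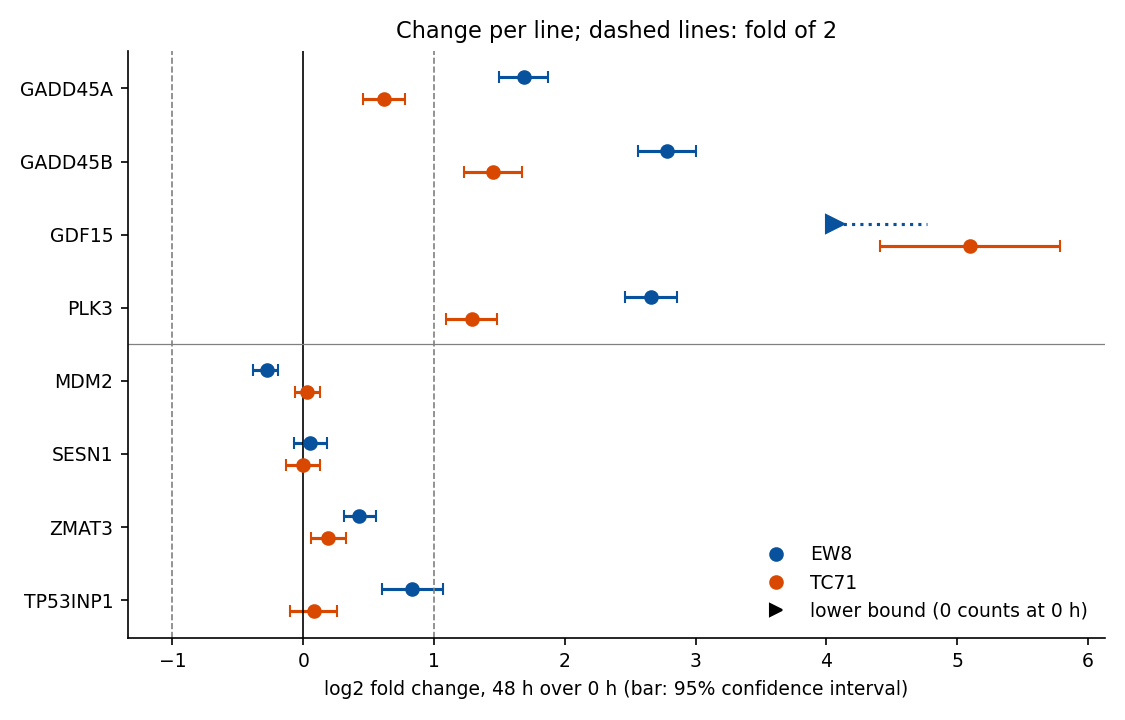
Fitted log2 fold change of each member, 48 h over 0 h, in EW8 (blue) and TC71 (orange), with 95% confidence intervals, the triangle being the lower bound for GDF15 in EW8 (4.07 on the log2 scale). The intervals of GADD45A, GADD45B and PLK3 in EW8 lie past the dashed line of a 2-fold rise, and those of MDM2, SESN1 and ZMAT3 lie inside it. The EW8 interval of TP53INP1 (0.6 to 1.07) crosses that line.

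The counts of each class were set beside those of all genes tested. GDF15 passed the filter on low counts only through its 48 h libraries, so its calls had to be higher and are counted apart. In EW8, the other 3 multi-stress members, GADD45A, GADD45B and PLK3, were called higher, where 13.9% of all genes were, and none of the 4 mainly p53-dependent members was called in either direction, where 17.2% of all genes were and 3.35% were lower. In TC71, 2 of these 3, GADD45B and PLK3, were called higher against 3.26% of all genes, and none of the mainly p53-dependent ones against 4.12% in either direction and 0.854% lower. A count of none among 4 genes is near the share of all genes in both lines, so it does not by itself set that class apart. With an adjusted p below 0.05 alone, GADD45A, GADD45B and PLK3 were higher in both lines (37% of all genes in EW8 and 22.9% in TC71 were higher). Of the mainly p53-dependent members, 2 were higher and 1 lower in EW8, where 31.6% of all genes were lower. In TC71, 1 was higher and none lower, where 19.2% of all genes were lower. In either direction, 68.6% of all genes passed in EW8 and 42.1% in TC71. The median log2 fold change was 2.66 for the multi-stress class without GDF15 and 0.24 for the mainly p53-dependent class in EW8, beside 0.03 over all genes. In TC71 the medians were 1.29 and 0.06, beside 0.0. GDF15 left aside, the groups did not overlap for 6 of 7 members in EW8 and for 4 in TC71, beside 71.1% and 49.6% of all genes.

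The same division was followed in other p53-linked genes, from lists written by hand from general knowledge. Of 15 other p53 targets that several stress pathways induce, KLF4 is counted apart, since its mean neared the filter on low counts only in EW8 at 48 h. Of the other 14, 12 were called higher in EW8 and 10 in TC71, and none lower, beside 13.9% and 3.26% of all genes called higher. The widest rises in EW8 were those of ATF3, a bZIP factor of the stress response, with a log2 fold change of 4.89 (150, 134 and 186 counts before and 3563, 3829 and 3970 after), of the antiproliferative gene BTG2 with 3.43 and of CDKN1A with 3.4. In TC71 they were ATF3 with 3.37, the immediate early gene IER3 with 2.17 and CDKN1A with 2.05. CDKN1A, which encodes the p21 inhibitor of cyclin-dependent kinases and the best known p53 target, went from 229, 215 and 351 counts to 2200, 2250 and 2367 in EW8 (adjusted p = 4.20e-24, edgeR). In TC71 it went from 503, 338 and 435 counts to 1842, 1806 and 2693 (adjusted p = 1.31e-18). CDKN1A thus rose past 2-fold in both lines like GADD45B and PLK3, and unlike MDM2, SESN1 and ZMAT3. The genes of this list, CDKN1A included, were placed by hand with earlier results of these data known. Their agreement with the division may follow from that sorting and was not tested. The genes of the list under the fold threshold, named after their values were seen, were IER5 (0.36 in EW8 and 0.23 in TC71) and the death receptor gene TNFRSF10B (0.57 and 0.03) in both lines, and EPHA2 (0.65), PMAIP1 (0.85) and KLF4 in TC71. KLF4 was close to the floor, at 0.143 CPM in EW8 at 0 h and 0.474 at 48 h.

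Of 22 other targets that depend mainly on p53, 19 had a row, and none of them was called past 2-fold in either line, beside 17.2% of all genes in EW8 and 4.12% in TC71, where none of 19 is near that share. With an adjusted p below 0.05 alone, 10 were higher and 6 lower in EW8, and 7 higher and 1 lower in TC71. Over all genes 37% were higher and 31.6% lower in EW8, and 22.9% higher and 19.2% lower in TC71, so the TC71 count of 8 of 19 is near the 42.1% of all genes. The changes ran from −0.82 to 0.95 in EW8, with a median of 0.22, and from −0.32 to 0.63 in TC71, with a median of 0.1. The ends of these ranges, named after their values were seen, were RPS27L at −0.82 and the phosphatase gene PPM1D at 0.95 in EW8, and TRIAP1 at −0.32 and the nucleotide excision repair gene DDB2 at 0.63 in TC71. RRM2B, the p53-inducible small subunit of ribonucleotide reductase, rose by 0.25 (adjusted p = 2.20e-04, edgeR) in EW8 and stood at 0.1 in TC71 (adjusted p = 0.143). The lists were written with earlier results of these data known.

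**Figure D3:**
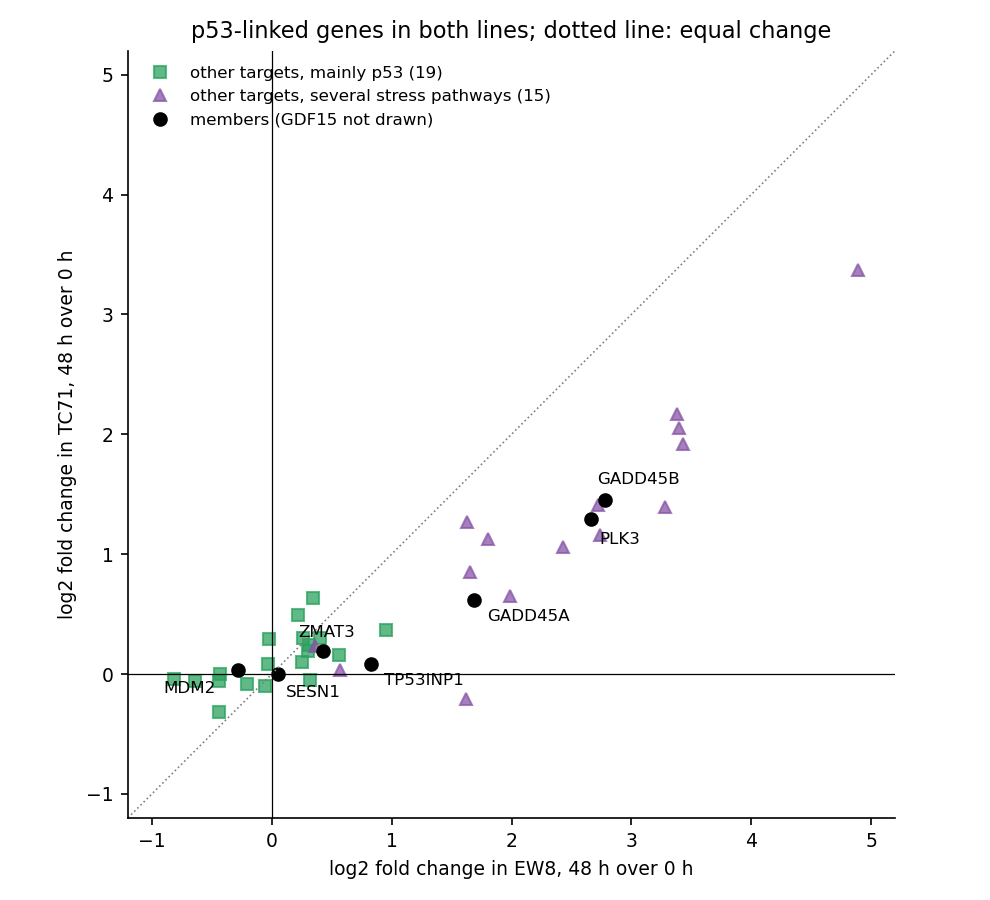
Log2 fold change (48 h over 0 h) in EW8 on the horizontal axis and in TC71 on the vertical axis, for 19 other mainly p53-dependent targets (green squares), 15 other multi-stress targets (purple triangles) and the members (black circles, GDF15 not drawn because its EW8 value is a bound). The squares lie within 1 of zero on both axes together with MDM2, SESN1, ZMAT3 and TP53INP1, and most triangles lie to the right with GADD45A, GADD45B and PLK3, below the dotted line of equal change.

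A p53 relative and an inhibitor were followed beside the members. TP73, the p53 relative that can bind the same response elements, was counted 15, 13 and 23 times at 0 h and 78, 95 and 85 times at 48 h in EW8 (log2 fold change 2.63, adjusted p = 2.06e-14). The TC71 counts of TP73 were 99, 80 and 90 at 0 h and 360, 299 and 399 at 48 h (log2 fold change 1.72, adjusted p = 8.41e-15). MDM4, the MDM2 relative that binds and restrains p53, changed by −0.45 in EW8 (adjusted p = 1.09e-05), and its TC71 change was −0.33 (adjusted p = 7.93e-04). MDM4 and MDM2 were thus both lower at 48 h in EW8, and MDM4 alone of the pair passed the test in TC71.

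The sestrin relatives of SESN1 were measured too. SESN2, which ATF4 as well as p53 induces, rose by 2.43 on the log2 scale in EW8 (adjusted p = 1.51e-24, edgeR), and its rise in TC71 was 1.06 (adjusted p = 4.04e-13). SESN3, a target of FOXO factors, rose by 1.21 (adjusted p = 4.00e-13) and 0.24 (adjusted p = 0.00321) in the same order. SESN1, given above, did not pass in either line. Of the 6 family relatives with a row, 2 were called higher in EW8 and 1 in TC71, these being SESN2 and SESN3, and SESN2, beside 13.9% and 3.26% of all genes called higher. Relatives also fell: the mitotic kinase gene PLK1, named after its values were seen, stood at −0.98 in EW8 (edgeR, adjusted p = 1.29e-20), and its TC71 change was −0.87 (adjusted p = 5.94e-18).

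Most genes for the proteins that GADD45 acts through did not rise with GADD45A and GADD45B. Of 12 genes for GADD45 partners and the kinases below them, none was called higher in either line (13.9% of all genes in EW8 and 3.26% in TC71 were) and 1 was called lower in EW8, where 3.35% of all genes were. With an adjusted p below 0.05 alone, 11 were lower and 1 higher in EW8, and 4 lower and 3 higher in TC71. Over all genes 31.6% were lower and 37% higher in EW8, and 19.2% lower and 22.9% higher in TC71, so the TC71 counts are near those of all genes. The 1 higher gene in EW8, named after its values were seen, was MAP2K3, a p38 kinase activator (0.98, adjusted p = 6.86e-13, edgeR). PCNA, the sliding clamp of DNA replication that GADD45 proteins bind, fell from 11067, 8096 and 16296 counts to 4526, 4971 and 4733 in EW8 (log2 fold change −1.0, SE 0.04, adjusted p = 4.51e-22). This 1 lower call lies at the 2-fold threshold (95% confidence interval −1.08 to −0.93). In TC71 PCNA rose by 0.37 (adjusted p = 4.66e-10). The list holds cell-cycle genes (PCNA, CDK1 and CCNB1) besides the kinases.

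The change was larger in EW8 than in TC71 for 3 of the 4 multi-stress members, PLK3, GADD45B and GADD45A, by a test of the difference itself. The difference of the log2 fold changes, EW8 minus TC71, was 1.38 for PLK3 (SE 0.14, adjusted p = 9.98e-10, edgeR), 1.33 for GADD45B (SE 0.16, adjusted p = 3.21e-08) and 1.07 for GADD45A (SE 0.12, adjusted p = 5.73e-09). These 3 passed the fold threshold, beside 7.28% of all genes called higher. GDF15 also passed it, but its fitted difference of 3.64 (adjusted p = 0.0414) rests on the zero counts of EW8 at 0 h, and the call was lost under 6 alternatives (adjusted p from 0.0537 to 0.125), namely DESeq2's Wald test and leaving out EW8 0 h replicate 1, 2 or 3, EW8 48 h replicate 3 or TC71 0 h replicate 2. The EW8 bound of 4.07 is below the TC71 value of 5.1, so the counts do not set which line changed more. None of the mainly p53-dependent members passed the fold threshold, beside 8.26% of all genes in either direction and 0.981% lower, and none of 4 is near that share. With an adjusted p below 0.05 alone, TP53INP1 (0.75, adjusted p = 5.57e-05) and ZMAT3 (0.24, adjusted p = 0.0287) were higher and MDM2 lower (−0.31, adjusted p = 1.63e-04), beside 25.7% of all genes higher, 22.4% lower and 48.1% in either direction. The call of ZMAT3 was lost under 8 alternatives, with DESeq2's Wald test (adjusted p = 0.0581) and without any of 7 single libraries (adjusted p from 0.0515 to 0.124). SESN1 differed by 0.05, with an interval of −0.13 to 0.23 (adjusted p = 0.672). Both responses share no libraries, but the response over all genes was also wider in EW8, where 17.2% of genes were called against 4.12% in TC71.

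The lines also started from different levels. At 0 h, MDM2 was higher in EW8 than in TC71 by 0.67 on the log2 scale (adjusted p = 1.14e-14, edgeR), ZMAT3 by 0.62 (adjusted p = 3.05e-10) and SESN1 by 0.5 (adjusted p = 1.28e-08). TP53INP1 was lower in EW8 by 2.34-fold (log2 difference −1.22, SE 0.11, adjusted p = 3.36e-12). All 4 multi-stress members were lower in EW8. GADD45A differed by −1.0 (SE 0.09, adjusted p = 2.61e-11), just inside the 2-fold threshold, PLK3 by −0.52 (adjusted p = 2.99e-04) and GADD45B by −0.41 (adjusted p = 0.00996). GDF15, with no counts against 2, 4 and 1, is at or near the floor in both lines, and no fold is given. By fold and adjusted p, 2 of 8 members were called lower in EW8 (TP53INP1 and GDF15), where 11.9% of all genes were, and none higher, where 4.77% were (16.7% in either direction). The GDF15 call was lost without TC71 0 h replicate 2 (adjusted p = 0.0517), and leaving out single libraries moved the count of members called between 1 and 3. With adjusted p alone, 3 members were higher, where 32.8% of all genes were, and 5 lower, where 32.9% were (65.7% in either direction). The libraries of the lines did not overlap for all 8, beside 68.3% of all genes. The 3 higher ones all belong to the mainly p53-dependent class.

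Levels of different genes were compared per length, as CPM per kb of merged exons in GENCODE release 44. In EW8 at 0 h the order was MDM2 (15.6 CPM per kb), SESN1 (5.42), ZMAT3 (3.31), GADD45A (2.95), GADD45B (1.4), PLK3 (1.36), TP53INP1 (0.852) and GDF15 (no counts). GADD45B and PLK3 overlapped across libraries, and the other neighbours did not. At 48 h in EW8, GADD45B (9.57), GADD45A (9.47) and PLK3 (8.6) stood between MDM2 (12.9) and SESN1 (5.66). The libraries of GADD45A and GADD45B overlapped, and the lowest of these 3 genes, PLK3, was above SESN1 in every library. ZMAT3 (4.47), TP53INP1 (1.5) and GDF15 (1.06) followed without overlap.

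In TC71 at 0 h the order was MDM2 (9.86 CPM per kb), GADD45A (5.87), SESN1 (3.84), ZMAT3 (2.16), TP53INP1 (1.97), PLK3 (1.95), GADD45B (1.85) and GDF15 (0.0498). Libraries of PLK3 overlapped with those of ZMAT3, TP53INP1 and GADD45B. At 48 h it was MDM2 (10.1), GADD45A (9.01), GADD45B (5.06), PLK3 (4.73), SESN1 (3.86), ZMAT3 (2.46), TP53INP1 (2.08) and GDF15 (1.68). GADD45B and PLK3 overlapped there, as did TP53INP1 and GDF15, while the libraries of MDM2 and GADD45A did not. In both lines the multi-stress members GADD45B and PLK3 thus moved, by their means, from below SESN1 and ZMAT3 to above them.

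**Figure D4:**
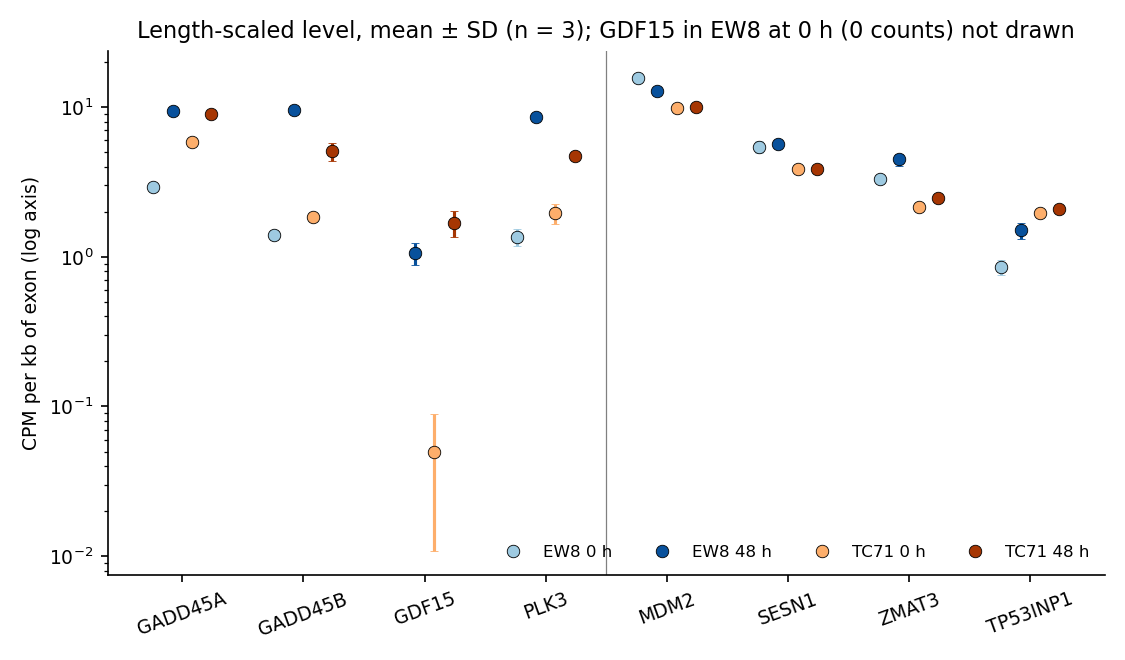
Level per length (CPM per kb of exon, log axis) of each member in the 4 groups, as mean ± SD (n = 3), with GDF15 in EW8 at 0 h left out because it had no counts. GADD45B and PLK3 rise from 1.4 and 1.36 to 9.57 and 8.6 in EW8 and pass SESN1 (5.42 and 5.66).

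The genes whose level followed each member most closely were found by Pearson correlation over the 12 libraries, on log2(CPM + 0.1), among 10771 genes tested with a mean of at least 5 CPM. The 12 points fall into the 4 groups and share their scaling, so the values describe the pattern over groups and carry no test. GADD45B was followed most closely by TWIST1 (r = 0.995), AMOTL2 (0.995) and DDIT4 (0.994), and PLK3 by XRCC1 (0.994), SERTAD1 (0.994) and GADD45B itself (0.991). GADD45A was followed by ZNF431 (0.997), CCNG2 (0.994) and LINC00659 (0.994), and GDF15 by DUSP2 (0.993), RIBC2 (0.983) and BRCA1 (0.978). The 4 other members paired with other genes, MDM2 with RNF168 (0.998), GLO1 (0.992) and CD164 (0.991), and ZMAT3 with ATP6V1A (0.995), PTPN1 (0.994) and LIMA1 (0.993). SESN1 was closest to FBXO30 (0.987), PPP4R3A (0.987) and ERCC8 (0.986), and TP53INP1 to ENPEP (0.986), SEMA3C (0.986) and PCMTD1 (0.983). GADD45B, for PLK3, was the only member among the 3 closest genes of any member.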

How the data were processed

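Poly(A) RNA of both lines was isolated with the RNeasy Plus kit and made into libraries by the TruSeq Stranded mRNA protocol. The submitters' processing notes name FastQC, STAR and hg38; the counting tool, annotation and strand setting are not given in the sources used here. The table deposited by the authors holds raw counts per gene without normalization, and no gene summed to fewer than 21 over all libraries, so low counts had been filtered. Groups came from the sample labels.

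Tests used edgeR 4.0.16 (R 4.3.3) on these counts, with filterByExpr set to a minimum count of 10 and a minimum total of 15, TMM factors, one robust quasi-likelihood fit over all 12 libraries without a replicate block, and Benjamini-Hochberg adjustment over all 16515 genes tested. Calls needed a fold above 2 at an adjusted p below 0.05. Contrasts taken were 48 h against 0 h per line, their difference, and the lines at 0 h. CPM used TMM-scaled library sizes. Replicates of a group differed by more than sampling noise (chi-square per gene 2.05 to 9.48). The procedure was tested on simulated counts. Exon lengths came from GENCODE release 44, promoters from RefSeq and sequence from hg38.

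The members, lists and motifs were chosen with earlier results of these data known. Named genes were all members, RRM1, up to 3 called genes per list, line and direction with the largest change, and MDM4, SESN2, SESN3, RRM2B and CDKN1A always; for likeness, the 3 genes with the highest correlation. Alternatives were other scalings, the Wald test of DESeq2 1.42.0, other filters and thresholds, the replicate block, and leaving out each library. TP53INP1 was given without position or sequence. Some genes that fall under the naming rule are not reported here.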

Additional observations from a re-analysis of the deposited data

Results flagged for a closer look

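The response of 7 members differed between the lines by the interaction term of the edgeR fit (EW8 response minus TC71 response, log2 scale), at an adjusted p below 0.05, which 48.1% of all genes passed. The place of GDF15 among the 7 rests on zero counts in EW8 at 0 h. The differences were 1.38 for PLK3, 1.33 for GADD45B, 1.07 for GADD45A and 0.75 for TP53INP1, all larger rises in EW8. ZMAT3 differed by 0.24 and lost this call under several alternatives. MDM2 differed by −0.31, with a fall in EW8 and a TC71 value of 0.03 whose interval includes zero. GDF15 had a fitted difference of 3.64, which depends on how zero counts in EW8 at 0 h are handled and whose direction the counts do not set. The rule for single outlying libraries is for groups of 4 or more and was not applied to these groups of 3. The largest pairwise differences within a group were those of TC71 48 h replicate 3 (chi-square per gene 7.83 and 9.48, against 5.12 for the other pair).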

How the results depend on the processing

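Over 644 alternative values of single members and comparisons, 630 stayed on their side of the fold and adjusted p thresholds, called or not, 7 lost a call, 7 gained one, and no called value reversed. SESN1, which was not called, ran from −0.04 to 0.18 in EW8 and from −0.05 to 0.13 for the difference. By adjusted p alone, ZMAT3 also lost its difference under 8 alternatives and its TC71 change under 2, and SESN1 in EW8 passed under 1, total counts alone. With no fold threshold, members called were 7 in EW8, 5 in TC71, 7 for the difference between lines and 8 for the lines at 0 h, in place of 4, 3, 4 and 2 (68.6%, 42.1%, 48.1% and 65.7% of all genes, in place of 17.2%, 4.12%, 8.26% and 16.7%). Each of these counts includes GDF15, which is set apart in the class counts above. Leaving out single libraries gave 4 in EW8, 3 in TC71, 3 to 4 for the difference and 1 to 3 for the lines at 0 h, the 1 without TC71 0 h replicate 2. The calls by fold and adjusted p that were lost were those of GDF15 for the difference (with DESeq2's Wald test, adjusted p = 0.0581, and without EW8 0 h replicates 1, 2 or 3, EW8 48 h replicate 3 or TC71 0 h replicate 2, adjusted p from 0.0537 to 0.125) and for the lines at 0 h (without TC71 0 h replicate 2, adjusted p = 0.0517). Those gained were GADD45A at 0 h, whose difference lies at the 2-fold threshold (−1.13 under total counts alone). With at least 10 counts in every library GDF15 was not tested, which left 3, 2 and 3 members called. Scaling by total counts alone moved the median of all genes to 0.156 in EW8 and to −0.143 between the lines at 0 h. MDM2 in EW8 then stood at −0.16 (adjusted p = 0.00202), below that median as before. The replicate numbers did not pair the libraries (correlation of same-numbered deviations from −0.116 to −0.017). With the replicate block, 4, 3 and 4 members were called in EW8, in TC71 and for the difference, as without it, and no block could be fitted for the lines at 0 h. Of the 8 members with a row, GDF15 alone had under 10 counts in a library.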
